A study of Lathyrus oleraceus with 16 samples.

Results

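In pea shoot apices, 200 genes were at a low level in meristems that had stopped making flowers and were at nearly the same low level 24 h after every fruit and flower had been cut from such plants. They were 200 of the 48559 gene IDs in the count table. The genes were chosen by the group means of normalized read counts, which are counts divided by a median-of-ratios size factor for each library. With L as log2 of a group's mean normalized count plus 10, a gene was kept where L in Arrested and L in Reactivated were each 1 or more below L in Pruned and in Proliferative. Arrested and Reactivated had to lie within 0.5 of each other, Pruned and Proliferative within 0.7, and more than 3 raw counts had to be present over the 4 Arrested libraries. The list was to hold the 200 largest falls of L from Pruned to Arrested, and 200 genes met the conditions, so that its limit removed none.

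All libraries were made from the meristem at the shoot tip of wild-type Caméor, a cultivar of pea (Lathyrus oleraceus, long named Pisum sativum), grown under greenhouse light and temperature cycles that the groups shared. Proliferative apices were from plants with a flower bud formed and no flower yet open, and Arrested apices were collected when proliferative arrest set in. Pruned apices were collected on that day from plants that had been pruned throughout and so had carried no seeds, and Reactivated apices came from arrested plants 24 h after all fruits and flowers were removed. Each group had 4 libraries, which the labels call biological replicates; whether a library is 1 plant or several, and the age of the plants in days, are not given in the sources used here. Apices were dissected by eye, so leaf or bud tissue around the meristem can be present. These are bulk samples, in which fewer cells of a type and less RNA per cell cannot be told apart.

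Proliferative arrest is the end of flower production at the shoot tip of a plant that fruits once and then dies. Developing seeds drive it, and taking the fruits away early prevents it or lets the meristem resume growth. In Arabidopsis, the arrested inflorescence meristem resembles a dormant bud: cell division and the response to the hormone cytokinin fall, genes of abscisic acid and stress responses rise, and the MADS-box factor FRUITFULL promotes the arrest by repressing APETALA2-type genes that sustain the meristem. How the shoot tip responds in the first day after fruit removal is what the Reactivated samples address.

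None of these roles could be assigned to a gene of the list. The IDs begin with Psat, and 0 of the 48559 matched the RefSeq gene table used here, so no name, function, position or sequence is given, and the labelled tissue was not checked against marker genes. A total of 4 IDs are printed, chosen as the 2 largest falls and the 2 largest rises after fruit removal among members called in that comparison with over 10 mean normalized counts in Reactivated. Other members are described by their place in the list, counted from the largest fall. Libraries held 16264221 to 24435174 counts. Normalized counts are not corrected for gene length, so values of different genes are set side by side for their pattern over the groups and not to rank their expression.

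Among the active apices, the libraries Pruned 2 and Proliferative 3 stood apart from the other libraries of their groups for many of the 200 genes. Pruned 2 held the highest value of its group for 96 of the 200 genes, and Proliferative 3 held the highest of its group for 84. Both were the highest for 71 genes. The total counts of this pair, 19548847 and 17588462, lay within the range of the other libraries. The labels give no shared batch, day or plant for them. The main levels, falls, folds and counts of calls are therefore also given without them, an alternative added after the data had been seen. Their part in the results beyond those values was not tested.

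Staying low was the less frequent course among genes that were low at arrest. L in Arrested was 1 or more below both Pruned and Proliferative for 4667 genes, and for 811 of these L in Reactivated was lower by 1 or more too. Of the 811 genes, 414 had Arrested and Reactivated within 0.5 of each other, while 348 had moved up by more than that in Reactivated and 49 had moved further down. Pruned and Proliferative were close for 327 of the 414, and 127 of the 327 were left out for having 3 raw counts or fewer in Arrested. These counts describe the rule and were not tested.

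**Figure D1:**
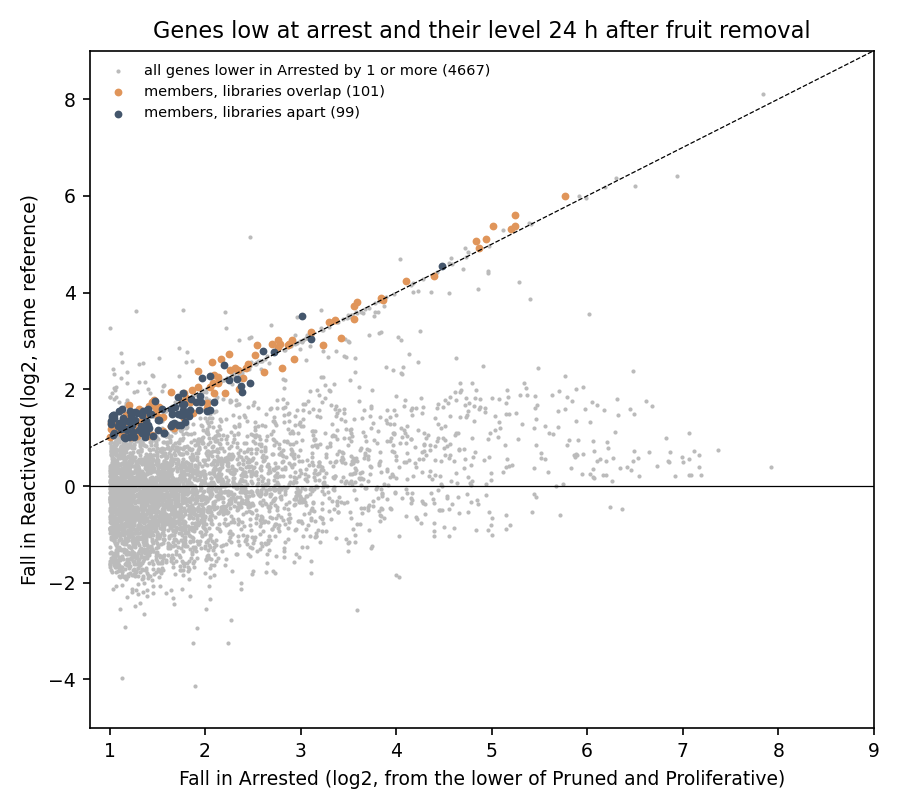
Each point is a gene whose log2 level was 1 or more lower in Arrested than in both active groups (4667 genes), with the fall in Arrested on the horizontal axis and the fall in Reactivated on the vertical axis, both measured from the lower of Pruned and Proliferative. Points at the solid line were back at the active level 24 h after fruit removal, and the 200 genes lie along the dashed line of equal falls, the 99 with separate libraries in dark blue and the 101 with overlapping libraries in orange.

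The edges of the list were densely filled. Of the genes that met every other condition, 47 missed on the fall in Arrested and 81 on the fall in Reactivated. The nearest values inside and outside were 1.0 and 0.996 for Arrested and 1.0 and 0.998 for Reactivated. Another 337 genes missed only because Arrested and Reactivated differed by too much, with 0.493 as the widest gap kept, and 44 missed on the gap between Pruned and Proliferative, with 0.672 kept and 0.707 left out. At the raw count limit, members had 4 counts or more over the Arrested libraries, and the 127 genes left out had up to 3.

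The fall of L from Pruned to Arrested ran from 1.0 to 5.92 on the log2 scale, with a median of 1.82. Without Pruned 2 and Proliferative 3 the same genes ran from -0.42 to 3.55, with a median of 1.48. Mean normalized counts of the members ran from 15.1 to 8512.1 in Pruned and from 16.3 to 7659.4 in Proliferative. In Arrested they ran from 0.668 to 3315.2, and the lowest and highest in Reactivated were 0 and 2713.6. Over the 200 genes the median of these means was 91.6 in Pruned and 87.5 in Proliferative, beside 9.87 in Arrested and 10.1 in Reactivated. The members lay low in the range of all genes: the median member stood at the percentile 31.1 of the Pruned levels of the genes tested, and 50 members were above the median tested gene.

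Behind similar group means, the list held genes of 2 kinds, separated here after their values had been seen and as a description. For 99 genes, all 8 Proliferative and Pruned libraries were above all 8 Arrested and Reactivated libraries. Of all 23979 genes tested, 3.7% had such a separation; since the rule chose genes on these groups, nothing is read from the difference. For the other 101 genes, called uneven here, at least 1 Proliferative or Pruned library lay within or below the range of the low groups. The fall in L had a median of 1.66 for the genes with separate libraries and 2.05 for the uneven ones. Without Pruned 2 and Proliferative 3 the medians were 1.62 and 1.08, and the largest falls 2.89 and 3.55. The fall was then under 1 for 1 of the 99 genes and for 49 of the 101.

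The 2 kinds differed in how even the active libraries were. With separate libraries, the highest and lowest of the 4 Pruned libraries differed by a median of 0.667 on the log2 scale (constant 10) and those of Proliferative by 0.724. With overlapping libraries these medians were 3.7 in Pruned and 3.53 in Proliferative. The constant flattens such ranges at the few counts the uneven genes had in Arrested and Reactivated, so the low groups are not compared in this way.

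**Figure D2:**
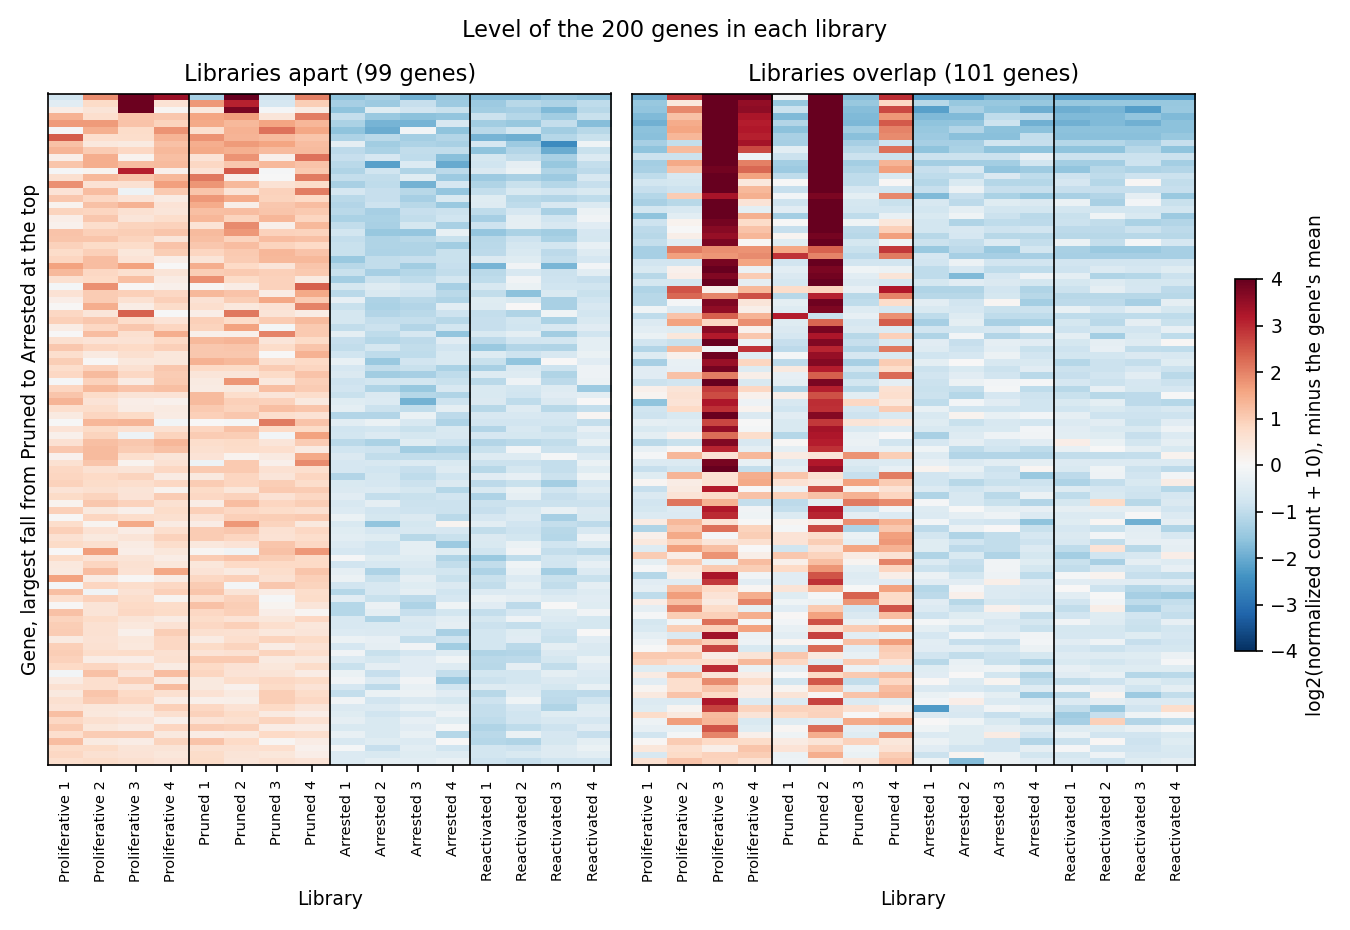
Rows are the 200 genes, in the order of their fall from Pruned to Arrested, and columns are the 16 libraries; colour gives log2 of the normalized count plus 10 minus the gene's mean over all libraries, with values past 4 in either direction shown at the end of the scale. In the left panel (99 genes) the 8 active libraries are above the 8 low ones for every gene. Some genes there are also far higher in Pruned 2 and Proliferative 3 than in the other active libraries. In the right panel (101 genes) Pruned 2 and Proliferative 3 carry most of the high values.

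The largest falls were mostly of the uneven kind. Among the 20 largest falls, from 5.92 to 3.36, 1 gene had separate libraries, and Pruned 2 was the highest Pruned library for all 20. Of the next 30 genes, 10 had separate libraries. The numbers were larger further down, to 28 of 50 at places 51 to 100, 30 of 50 at places 101 to 150 and 30 of 50 at places 151 to 200. Chosen again without Pruned 2 and Proliferative 3, the list held 2 of the first 20 genes, 15 of the next 30, and 32, 38 and 32 of the later groups of 50.

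In sum over the whole list, the 200 genes held 0.381% ± 0.0635 of all counts in Proliferative (SD, n = 4) and 0.4075% ± 0.099 in Pruned. They held 0.137% ± 0.00825 in Arrested and 0.0854% ± 0.0145 in Reactivated. Every Proliferative and Pruned library, at 0.333% or more, was above every Arrested and Reactivated library, at 0.144% or less. The rule chose the genes on these same counts, so nothing is read from that separation. All 4 Reactivated libraries, from 0.0714% to 0.102%, were below the 4 Arrested ones, from 0.128% to 0.144%. That gap is in shares of all counts. The size factors, which the rule used, were 0.923 to 1.5 in Arrested and 0.707 to 0.889 in Reactivated, and after division by them the median member was 9.87 and 10.1.

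Most of these counts came from the genes with separate libraries, although the uneven genes held a large part of them in Pruned 2 and Proliferative 3. The 99 genes held 0.3425% ± 0.0192 of the counts in Pruned and 0.316% ± 0.0141 in Proliferative (SD, n = 4 each). They held 0.13% ± 0.00876 in Arrested and 0.0805% ± 0.0134 in Reactivated. The 101 uneven genes held 0.00858%, 0.032%, 0.175% and 0.0441% in Proliferative 1 to 4. In Pruned 1 to 4 they held 0.0136%, 0.188%, 0.0186% and 0.0407%. In the 8 low libraries they held between 0.00369% and 0.00754%. Proliferative 1 was therefore close above the low libraries for these genes, while Pruned 2 and Proliferative 3 were far above the rest.

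**Figure D3:**
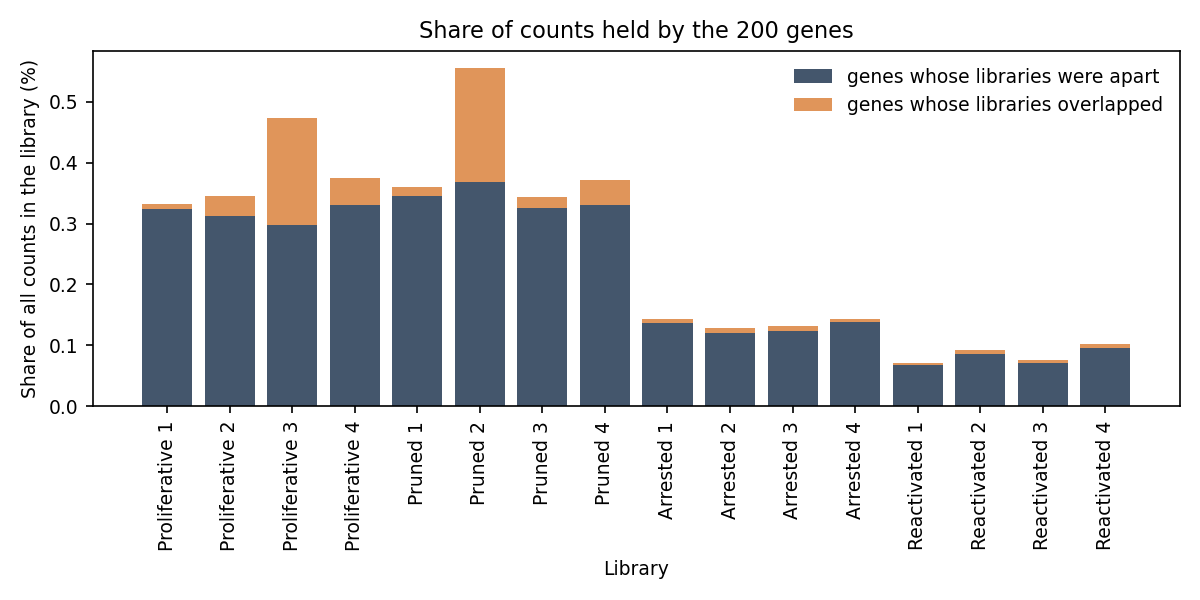
Bars give the share of all counts in each of the 16 libraries that the 200 genes held, in percent, split into the 99 genes with separate libraries (dark blue) and the 101 with overlapping libraries (orange). The dark part is nearly even within Proliferative and within Pruned, and the orange part is large in Pruned 2 (0.188%) and Proliferative 3 (0.175%).

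Of the genes with separate libraries, the median gene had a clear part of its Pruned level left, both at arrest and a day after fruit removal. As a share of the Pruned mean, Arrested stood at a median of 24.2%, with the middle 50% of genes from 13.8% to 31.9%. Reactivated stood at 25.2%, with the middle 50% from 16.7% to 32.6%. Their median levels were 146.3 normalized counts in Pruned and 125.8 in Proliferative, beside 27.8 in Arrested and 28.3 in Reactivated. Of the 99 genes, 81 had counts in every Arrested and Reactivated library, so most of the genes kept were reduced and still read. The rule had left out genes with the fewest raw counts in Arrested. The choice of genes therefore sets part of this result and of the shares left.

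The steadiest falls can be seen in 47 of the genes with separate libraries. Their 8 active libraries lay within 2-fold of each other, and they were chosen again without Pruned 2 and Proliferative 3. The one with the largest fall, at place 35, had normalized counts of 108.2, 108.0, 69.1 and 57.3 in the 4 Proliferative libraries and 94.4, 79.5, 98.7 and 81.0 in Pruned. It had 4.92, 0, 0 and 13.0 in Arrested and 3.94, 2.59, 8.49 and 1.13 in Reactivated. As the pick required, every active library was above every low one. The pooled Pruned level was 23.4 times that of Arrested and 22.9 times that of Reactivated.

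The next of these genes, at place 45, had more reads and a smaller fall. Its normalized counts were 829.5, 647.7, 568.8 and 794.8 in Proliferative and 936.2, 864.6, 781.1 and 782.6 in Pruned. They were 148.3, 127.7, 154.5 and 156.0 in Arrested and 98.4, 134.6, 72.2 and 166.6 in Reactivated. The 4 Arrested libraries were nearly equal, and the Reactivated ones spread on both sides of them.

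The gene at place 50 had 191.1, 245.1, 206.2 and 214.4 normalized counts in Proliferative and 153.0, 185.8, 218.7 and 194.8 in Pruned. It had 33.6, 10.7, 53.8 and 13.0 in Arrested, beside 43.3, 62.1, 22.6 and 38.3 in Reactivated. Its low groups overlapped each other, and neither reached the active range, which the pick required. The gene at place 62 had a mean of 1388.6 ± 83.5 in Pruned and 1028.0 ± 133.8 in Proliferative (SD, n = 4). Its mean was 294.5 ± 43.0 in Arrested and 365.3 ± 124.1 in Reactivated. Its Reactivated libraries ran from 244.8 to 528.9 and overlapped those of Arrested.

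The member with the most reads, at place 127, had 8410.2, 7196.2, 6762.4 and 8268.8 normalized counts in Proliferative and 9760.1, 9634.2, 7220.8 and 7433.5 in Pruned. It had 2918.4, 2695.0, 2491.4 and 3246.5 in Arrested and 2158.3, 2898.1, 2435.3 and 3362.6 in Reactivated. The pooled Pruned level was 3.01 times that of Arrested and 3.08 times that of Reactivated. The member with the next most reads, at place 193, had means of 7129.8 ± 1884.0 in Pruned and 7235.8 ± 1720.2 in Proliferative, beside 3315.2 ± 599.6 in Arrested and 2443.9 ± 566.1 in Reactivated (SD, n = 4). Both genes were still well read in the low groups, the lowest library being Reactivated 1 of the second gene, at 1899.9.

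At the other end, the gene at place 198 had the smallest spread between libraries among the genes with separate libraries. Its normalized counts were 1014.0, 868.9, 829.8 and 784.6 in Proliferative and 958.0, 810.0, 769.9 and 683.5 in Pruned. They were 387.6, 367.6, 400.2 and 391.2 in Arrested and 338.5, 371.5, 396.2 and 415.3 in Reactivated. The drop was only a little over the limit of the rule. The lowest active library was above the highest low one, as for every gene from which this one was picked. The smallest fall of all, at place 200, was in a gene with 72.1, 17.4, 68.6 and 56.3 in Arrested and 69.6, 96.4, 111.9 and 191.5 in Pruned. There Arrested 1 was above Pruned 1, so the groups overlapped.

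For the 101 uneven genes the share left depends on Pruned 2. As a share of the Pruned mean, Arrested stood at a median of 7.83% and Reactivated at 6.1%, and median levels were 68.8 normalized counts in Pruned and 68.3 in Proliferative, beside 3.63 in Arrested and 3.46 in Reactivated. Without Pruned 2 and Proliferative 3 the shares were 24.3% and 22.5%, over the 97 genes with counts in the other Pruned libraries, and the active medians 24.7 in Pruned and 26.7 in Proliferative. The median over the 101 genes was 5.09 in Pruned 3, 9.94 in Pruned 1 and 3.31 in Proliferative 1, beside 3.25 to 4.01 in the Arrested libraries. In 39 of the genes a Proliferative or Pruned library had no count at all. Proliferative 1 was within or below the range of the low groups for 80 of the 101 genes, Pruned 3 for 76 and Pruned 1 for 62. Pruned 2 was so for 8 and Proliferative 3 for 1. The remaining libraries were between, at 35 for Proliferative 2, 26 for Proliferative 4 and 29 for Pruned 4.

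For many uneven genes the pair stood far above the other active libraries. Both were 2-fold or more above the next active library for 60 of the 101 genes, 5-fold or more for 40 and 10-fold or more for 28, limits set after the values were seen. Pruned 2 and Proliferative 3 were both above all the low libraries for 92 of the 101 genes, and for 11 of these no other active library was above them, even slightly. Counting the active libraries above the low range, 22 genes had 7, 19 had 6, 21 had 5, 12 had 4, 16 had 3 and 11 had 2. The highest Pruned library was Pruned 2 and the highest Proliferative library was Proliferative 3 for 64 of the 101 genes, against 7 of the 99 others.

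Psat2g189840 showed the largest fall of the list and its unevenness. Its normalized counts were 2.21, 320.1, 1237.1 and 964.9 in Proliferative and 30.8, 2424.9, 4.07 and 348.7 in Pruned. They were 0, 0, 2.6 and 4.33 in Arrested, from 7 counts in all, and 0 in the 4 Reactivated libraries. Proliferative 1 and Pruned 3 lay inside the Arrested range, while Pruned 2 had the highest value. Against a floor of 3 counts over the group, Reactivated was at least 717.7-fold lower than Pruned and at least 652.1-fold lower than Proliferative. Without Pruned 2 the first bound was 149.8-fold, and without Proliferative 3 the second was 462.7-fold. The fall of L from Pruned to Arrested was 5.92 with Pruned 2 and 3.55 without it. The floor covers counting error only and not the spread between libraries.

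Psat3g076320, the second largest fall, had no count in 3 of the 8 active libraries. Its normalized counts were 0, 28.5, 1209.7 and 320.7 in Proliferative and 0, 2115.9, 0 and 40.9 in Pruned. A single Arrested library had counts, 3.28 from 4 reads, and no Reactivated library had any. Reactivated was at least 539.1-fold lower than Pruned on the same floor, or at least 16.25-fold lower without Pruned 2, which alone set nearly all of the Pruned mean. The fall of L from Pruned to Arrested was 5.67, and 1.13 without that library. Without Pruned 2 the gene was no longer called lower in Arrested or in Reactivated than in Pruned, nor without both Pruned 2 and Proliferative 3. The edgeR call for Reactivated against Pruned was also lost without Reactivated 1, 3 or 4, with adjusted p from 0.0514 to 0.0539. DESeq2 called the gene lower in Reactivated than in Arrested, at -16.14 on the log2 scale, a contrast that rests on the 4 Arrested reads. With edgeR it was -2.96 and not called.

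**Figure D4:**
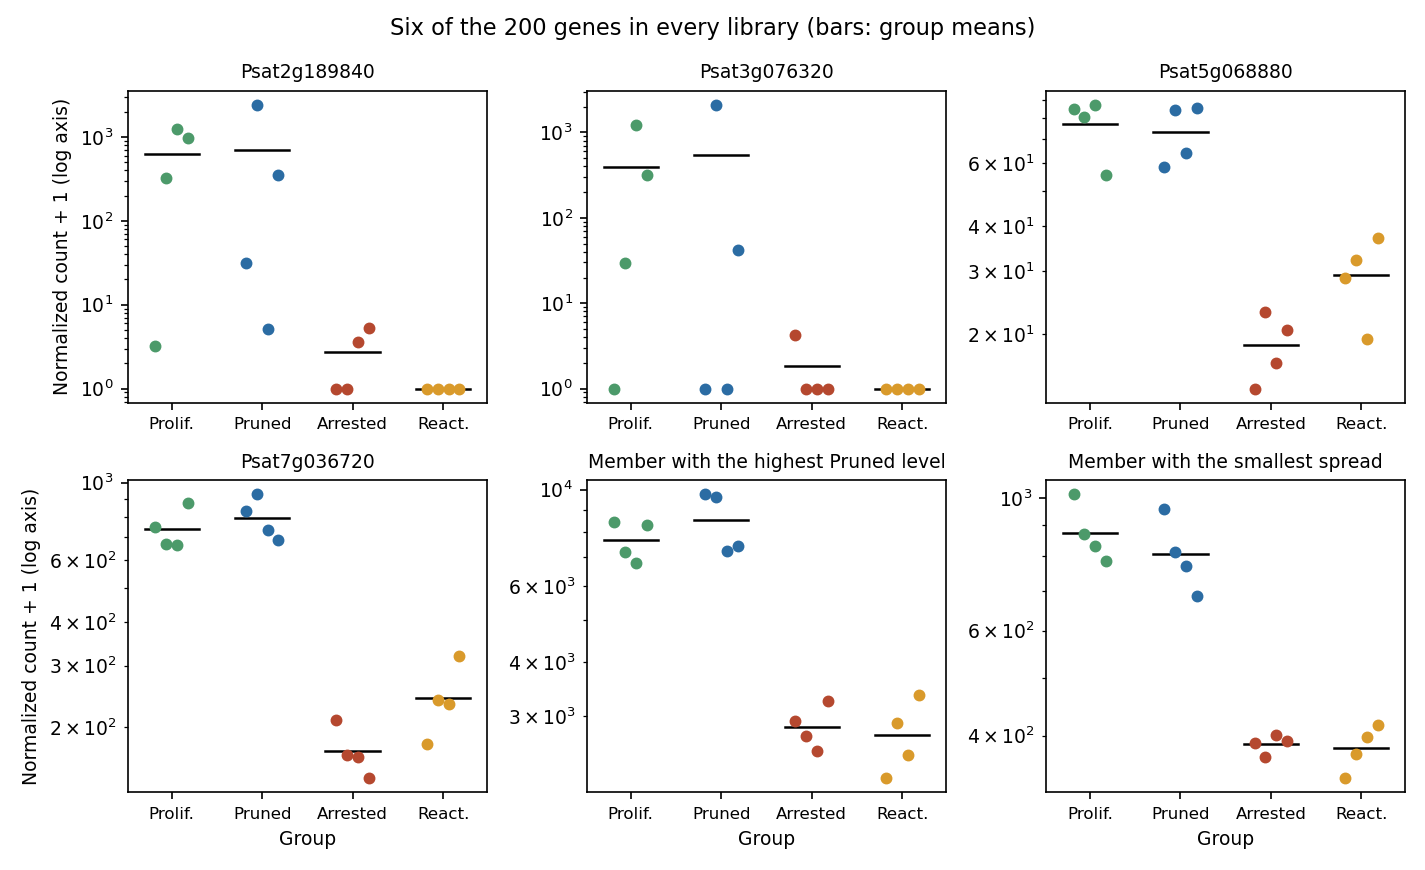
Normalized counts plus 1, on a log axis, of 6 of the 200 genes in each of the 4 libraries of each group (points), with the group means (bars). Among active libraries Psat2g189840 ranges from 2.21 to 2424.9 and Psat3g076320 from 0 to 2115.9, whereas the other 4 genes have their 8 active libraries above their 8 low ones.

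The uneven genes shared their high libraries. After each gene's group means were subtracted, the deviations of 2 uneven genes over the 16 libraries correlated at a mean Pearson r of 0.457 over all pairs, and at 0.481 over the 8 active libraries. For the uneven genes the mean was 0.00402 over the 8 low libraries. For the genes with separate libraries it was 0.0757 over all 16, 0.0229 over the 8 active and 0.129 over the 8 low libraries. The 22991 tested genes between the lowest and highest member level, most of all tested genes, are set beside them. Theirs was 0.00198 over all 16 and 0.00314 over the 8 low libraries. Of the 101 uneven genes, 32 were chosen again without Pruned 2 and Proliferative 3, so most met the rule only with those libraries. The division into 2 kinds used the same values, so the size of the uneven genes' correlation depends on the choice and is a description. Neither the rule nor the division set which libraries were to be high. Why the genes shared them was not tested. Over all tested genes the deviations of Pruned 2 and Proliferative 3 correlated at r = 0.279; other pairs of libraries went higher, such as Proliferative 1 with Pruned 1 at 0.542 and Proliferative 2 with Reactivated 2 at 0.588.

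In the active groups, the median SD of the genes with separate libraries over the 4 libraries, on the log2 scale with the constant of 10, was 0.309 in Pruned and 0.32 in Proliferative. That of the uneven genes was 1.71 in Pruned and 1.65 in Proliferative. The division into 2 kinds was made on overlap with the low groups and not on the SD. It used the same values, and a wide spread makes overlap more likely, so the difference in SD is a description.

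Levels in Reactivated stood on both sides of those in Arrested, within the band the rule set. Reactivated was above Arrested for 94 genes and below for 106, with a median difference of -0.03 in L. With separate libraries 56 were above and 43 below, and among the uneven genes 38 were above and 63 below. No count at all was found in the 4 Reactivated libraries for 14 members, 13 of them uneven, and 34 members had 3 counts or fewer there. The rule asked for more than 3 raw counts in Arrested and set no such minimum in Reactivated. Among genes with few reads this favours lower values in Reactivated, so nothing is read from these numbers.

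In edgeR's quasi-likelihood fit across all genes, 176 of the 200 members passed the filter on low counts, including all 99 with separate libraries and 77 of the uneven ones. Of the 176, 4 were called higher in Reactivated than in Arrested at an adjusted p under 0.05 and 2 were called lower. Over all genes tested 36.3% were called higher and 35.8% lower in that comparison; the rule itself removed genes that differed, so nothing is read from the gap. The larger of the 4 rises by fitted value were in genes with few reads, 2.38 on the log2 scale at place 124, with a Reactivated mean of 4.92 normalized counts, and 2.02 at place 155, with 4.7.

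The other rises were in the genes with IDs printed. Psat5g068880 had normalized counts of 83.9, 79.5, 86.3 and 54.5 in Proliferative and 57.6, 83.5, 63.1 and 84.3 in Pruned. It had 13.1, 22.1, 15.6 and 19.5 in Arrested and 27.6, 31.1, 18.4 and 36.0 in Reactivated. Reactivated 3 lay within the Arrested range and the other 3 Reactivated libraries above it, while all were below the active libraries. The fitted log2 difference was 0.69 ± 0.281 (SE) from Arrested to Reactivated, after -2.06 ± 0.278 from Pruned to Arrested. With edgeR the adjusted p was 0.0375, and the gene was not called when library totals replaced TMM, at 0.12. Without Pruned 2 and Proliferative 3 the difference was the same, 0.69, with an adjusted p of 0.0532. The call was also lost with no filter, with the 2 groups alone, and without Arrested 1, Arrested 3 or Reactivated 1, 2 or 4, with differences from 0.51 to 0.70.

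Psat7g036720 had 745.6, 668.0, 661.2 and 873.4 normalized counts in Proliferative and 830.8, 925.3, 732.3 and 683.5 in Pruned. It had 208.2, 165.8, 163.2 and 142.0 in Arrested, beside 178.4, 238.2, 232.1 and 318.5 in Reactivated. Reactivated 1 was within the Arrested range, and the other 3 were above it. The fitted log2 difference was 0.51 ± 0.17 (SE) from Arrested to Reactivated and -2.25 ± 0.172 from Pruned to Arrested. With library totals its sign turned, to -0.08, and without Reactivated 4 it was 0.32 and not called. A small return was thus read at one scaling and not at the other.

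The 2 members called lower in Reactivated were a gene with many reads and one with few. The gene at place 199 had means of 1842.3 ± 149.1 in Pruned, of 899.6 ± 60.1 in Arrested and of 672.4 ± 35.9 in Reactivated (SD, n = 4), a fitted log2 difference of -0.42 ± 0.0871 between the last pair. The gene at place 135 went from 1.41 ± 1.9 normalized counts in Arrested to 0 in the 4 Reactivated libraries.

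The band between Arrested and Reactivated depends on how libraries are scaled. With TMM, the median difference between Reactivated and Arrested was -0.01 over all tested genes and -0.02 over the members, on the log2 scale. With library totals it was -0.58 over all tested genes and -0.59 over the members. A change of scaling moves all genes by about the same amount. With library totals, edgeR called 29 members lower in Reactivated than in Arrested and 0 higher (0 also at an unadjusted p under 0.05), where 49.5% of all genes were called lower and 24.81% higher.

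Pruned and Proliferative were held close by the rule. L was higher in Pruned for 126 members and lower for 74, and the median fitted log2 difference was 0.14 over the tested members. With edgeR, 0 of 176 members were called higher in Pruned and 0 lower, beside 1.94% and 1.75% of all genes, from which nothing is read. At an unadjusted p under 0.05, 1 was higher and 0 were lower, and DESeq2 called 0 in each direction.

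Against the active groups, 166 of the 176 tested members were called lower in Arrested than in Pruned, where 36.6% of all genes were, and 166 were called lower in Arrested than in Proliferative, where 35.1% were. In Reactivated, 166 were called lower than in Pruned (21.8% of all genes) and 160 lower than in Proliferative (22.6%). The rule used each of these contrasts, so the counts describe it. All 99 genes with separate libraries were called in the 4 contrasts. Of the 77 tested uneven genes, 67, 67, 67 and 61 were. Fitted without Pruned 2 and Proliferative 3, the counts in the same order were 145, 146, 138 and 141 of 168 members tested, where 34.97%, 33.14%, 19.24% and 20.25% of all genes were called. The contrasts share their samples. The median fitted log2 difference of the members was -2.59 for Arrested against Pruned and -2.32 for Reactivated against Pruned, and that of all tested genes was -0.10 and -0.08.

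By their IDs the members were spread over all prefixes of the table. Those that begin with Psat5g were the most frequent, 35 genes or 17.5% of the list beside 16.1% of the genes tested. Those that begin with Psat0s were 12 genes, beside 2630 of the 23979 genes tested. A single pair of members had neighbouring IDs, 40 apart, which is the step between 99.2% of consecutive IDs. They stood at places 4 and 5 of the list, both uneven, and their levels over the 16 libraries correlated at r = 0.99. That value includes the difference between active and low groups, by which the rule chose both genes. It was not set beside the same measure for other pairs of uneven genes, so nothing is read from it. Whether reads of near-identical copies were split between the neighbours was not tested.

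How much of the list was chosen again when a choice was changed differed widely between choices. Without Proliferative 3, 121 of the 200 genes were chosen again, and without Pruned 2, 123. Without both, 119 were, made up of 87 of the 99 genes with separate libraries and 32 of the 101 uneven ones. Leaving out any other single library kept more, up to 182. With TMM scaling 191 were chosen again, but with library totals 108, with group medians 113, with a constant of 1 120 and with a constant of 50 83.

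**Figure D5:**
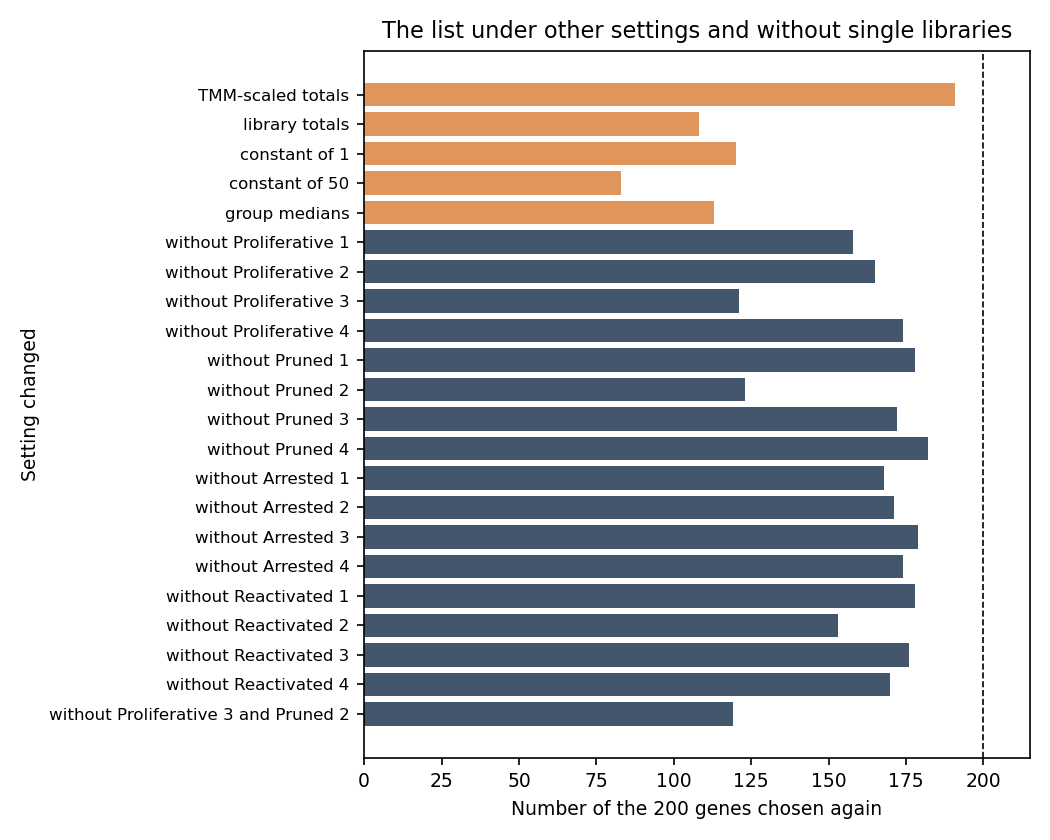
Bars give how many of the 200 genes were chosen again when the rule was applied with another setting (orange) or without the libraries named (dark blue); the dashed line marks 200. The shortest bar is that for a constant of 50 (83), and the shortest dark bars are those without Proliferative 3 (121), without Pruned 2 (123) and without both (119).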

How the data were processed

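Raw read counts per gene of 16 RNA-seq libraries were deposited by the authors as 1 table of 48559 genes, of which 17007 had no count; 0 rows named something other than a gene. Per the labels, the libraries were strand-specific and polyadenylated; the tools named in the submitters' processing notes are HISAT2, HTSeq, cutadapt and DESeq2, without versions. The file's name says that counting ignored strand, so antisense or overlapping genes could not be told apart. The genome build and annotation are not given in the sources used here.

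The list was made with median-of-ratios size factors in Python 3.11.15. Tests used edgeR 4.0.16 in R 4.3.3: filterByExpr by group (23979 genes), TMM factors, a single quasi-likelihood fit of the 16 libraries with group as the only term, and Benjamini-Hochberg adjustment over all tested genes, called under 0.05. The procedure was tested on simulated data, in which no gene was made high in single libraries only. Alternatives were DESeq2 1.42.0, other scalings, constants, filters, a replicate block and leaving out libraries. SE is the log2 difference divided by the root of F. p-values cover spread between libraries; floors cover counting error only.

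The members and lists were chosen with earlier results of these data known. Named IDs were the 2 largest falls from Pruned to Arrested and the 2 largest rises to Reactivated among called members with over 10 mean normalized counts there. Gene lists and tissue markers that need names were not analysed here.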

Additional observations from a re-analysis of the deposited data

Results flagged for a closer look

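A library was marked where its gap to the nearest other library of its group, divided by the group's range, passed Dixon's 95% critical value for 4 samples. Of 64 groups of values tested, 5 were marked, where chance marks about 1 in 20.

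The share of counts held by all 200 genes in Pruned gave a ratio of 0.872, and the share held by the uneven genes in Pruned gave 0.845; in both Pruned 2 was the high library. Psat2g189840 in Pruned gave 0.858 and Psat3g076320 in Pruned gave 0.981, again with Pruned 2 as the high library. Psat3g076320 in Arrested gave 1.0, since 3 of the 4 libraries were at 0 and Arrested 1 had 4 reads.

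Over the single genes of the list, 64 of 200 (32.0%) were marked in Pruned, 59 of them for Pruned 2, and 52 (26.0%) in Proliferative, 48 of them for Proliferative 3. In Arrested 30 (15.0%) and in Reactivated 27 (13.5%) were marked, with no library behind more than 10 of them. These shares were not set beside those of all tested genes. The members were chosen on group means, which a high value in a lone library can raise. The chance rate given above is therefore not a fair measure for values of these genes. What set Pruned 2 and Proliferative 3 apart was not tested.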

How the results depend on the processing

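The number of genes that met the rule was 200, and 317 with library totals, 126 with a constant of 50 in place of 10, 212 with TMM and 136 to 240 when each library was left out in turn. Of the 200 genes, 108 were chosen again with library totals (154 without the limit of 200), 120 with a constant of 1, 83 with a constant of 50, 113 with group medians, 119 without Pruned 2 and Proliferative 3, and 121 to 182 with a library left out. The number with separate libraries was 99 to 108 under the same omissions. It was counted over the same 200 genes, and leaving out a library cannot lower it. For Reactivated above Arrested, 4 members were called; library totals gave 0 and a fit of the 2 groups alone gave 0 of 100 tested (1 at an unadjusted p under 0.05), and omissions gave 1 (without Reactivated 4) to 8 (without Arrested 1). For Reactivated below Arrested, 2 were called; library totals gave 29, the 2 groups alone 5, the fit without Pruned 2 and Proliferative 3 1, and omissions 1 to 8, the last without Reactivated 4. Psat7g036720 reversed to -0.0752 for Reactivated against Arrested with library totals. The causes were not tested. Omissions gave 141 to 179 members lower in Arrested than in Pruned, 141 to 181 than in Proliferative, and 130 to 174 and 129 to 174 for Reactivated. Most same-numbered libraries did not deviate together, with r from -0.319 to 0.588 over 24 pairs and 3 pairs over 0.1. The own number was the best match in 7 of 48 cases. Proliferative 1 with Pruned 1 (0.542) and Proliferative 2 with Reactivated 2 (0.588) did deviate together. Whether the numbers pair any of the samples cannot be told from these values. A replicate block gave 152 members lower in Arrested than in Pruned, 149 lower than in Proliferative, 144 and 145 lower in Reactivated than in those groups (35.58% and 33.77% of all genes, then up to 20.76%), and 3 higher and 1 lower in Reactivated than in Arrested; with it Psat3g076320 was no longer called. At the lowest levels a few reads decide a value: 34 members had 3 counts or fewer over the Reactivated libraries.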
